A study of Homo sapiens with 6 samples.

Results

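The glucuronosyltransferase, sulfotransferase and glutathione transferase genes of Huh7 cells were compared between cells carrying a lentivirus that knocks down the V1 isoform of versican and cells carrying a control lentivirus. Members were the rows of the deposited expression table whose symbol is that of a UDP-glucuronosyltransferase of family 1, 2, 3 or 8 written with a number (UGT), a cytosolic sulfotransferase (SULT), a glutathione transferase of class alpha, mu, omega, pi, theta, zeta or kappa (GST), or a microsomal glutathione transferase (MGST). This gave 44 of 23344 rows: 17 UGT, 10 SULT, 14 GST and 3 MGST genes. UGT8 carries no second number and is not a member.

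Huh7 is an established line from a human hepatocellular carcinoma. The knockdown group had 3 libraries labelled with hairpin sh2, and the control group had 3 libraries labelled shNC. All cells were infected with lentivirus packaged in 293T cells, so the control cells carry a vector too, and the knockdown rests on a single hairpin label. The labels state neither separate cultures nor clones, so the p-values weigh differences against library-to-library spread alone, part of which may be technical.

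These enzymes attach a polar group to hormones, bile acids, bilirubin, drugs and reactive by-products of metabolism, which makes them soluble and ready for export from the cell. UGT enzymes sit in the endoplasmic reticulum and use UDP-glucuronic acid, SULT enzymes are cytosolic and use the sulfate donor PAPS, and GST enzymes join glutathione to electrophiles. The liver is a main site of these reactions, and nuclear receptors and the NRF2 pathway are known regulators of the genes.

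The values were treated as FPKM (fragments scaled to transcript length and library size), although the table does not name its unit, and they summed to between 851418 and 975501 per library. Read numbers are unknown. A rough index of depth, from low values times transcript length, lay at 0.911 to 1 of the deepest library. Only values in a fixed low range entered this index, so it cannot show whether depths differed. No more than 0.131% of the 6124 rows at 10 or above in every library were identical in any pair of libraries. VCAN, the targeted gene, had 1.90, 1.74 and 1.64 FPKM in knockdown replicates 1, 2 and 3, against 4.79, 6.24 and 8.10 in control replicates 1, 2 and 3. It fell by 1.40 on the log2 scale (SE 0.19, adjusted p = 0.0103; 0.0537 without control replicate 2); the table does not separate its isoforms. All 14 hepatocyte markers examined were detected, ALB, the albumin gene, at 3426 to 4006 FPKM in knockdown and 3128 to 3579 in control libraries. Of the 14, APOA1, FGA and FGB rose and TTR and RBP4 fell. Mitochondrially encoded genes took 23.8% to 31.2% of the summed values in knockdown and 16.0% to 19.2% in control libraries.

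Leukocyte transcripts were present in knockdown replicate 2, where 15 blood cell markers summed to 217 FPKM, against 110 in each of the other knockdown libraries and 76.9 to 92.6 in control libraries. Most of each sum came from CD14 and LYZ, the lysozyme gene, at 45.6 to 72.5 and 18.3 to 68.2 FPKM over all libraries. S100A8, a defining myeloid marker, had 17.9 FPKM in knockdown replicate 2 and 0 in the other 5 libraries, and the pan-leukocyte marker PTPRC had 1.96 there and at most 0.16 elsewhere. Of the 4 blood cell markers that could be tested, LYZ rose, while CD14 overlapped between groups and was not called. Both were present in the libraries without S100A8 too, so neither their levels nor the sums can be read as leukocyte RNA alone. The part of leukocyte transcripts in the results was not tested. Values without knockdown replicate 2 are given below for the called genes of the set still tested then, and for list genes as a count. Of the other marker lists, 1 of 6 fibroblast and stellate cell markers and neither endothelial marker in the table was detected, and of 6 tested markers of intestinal and bile duct epithelium SOX9 rose. A larger mitochondrial share lowers every other value of a library in proportion. Rescaling each library to its total without those genes put the median log2 fold change at 0.06, against -0.03 as deposited, and the split of calls to 680 higher and 223 lower, against 568 and 539.

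A gene was counted as detected when it had at least 1 FPKM in at least 3 of the 6 libraries. By that measure 27 of the 44 genes were detected, 7 of 17 UGT, 7 of 10 SULT, 10 of 14 GST and all 3 MGST genes. The most abundant were glutathione transferases: over all libraries MGST1 averaged 474 FPKM, GSTP1 469 and GSTO1 328, which placed MGST1 and GSTP1 above 99.1% of all rows. MGST2 averaged 157, GSTK1 145 and the sulfotransferase gene SULT2A1 76.9 FPKM. Glucuronosyltransferase genes were lower: UGT2B4 averaged 33.8 FPKM in knockdown and 7.69 in control libraries, and UGT1A8 6.90 in knockdown and 8.53 in control libraries, so that UGT2B4 had the highest mean in knockdown and UGT1A8 in control libraries. The UGT genes together summed to 42.4, 64.2 and 68.7 FPKM in knockdown replicates 1, 2 and 3 and to 22.0, 23.1 and 27.7 in control replicates 1, 2 and 3. The UGT2 family made up 74.9% to 84.2% of that sum in knockdown libraries and 37.9% to 51.3% in control libraries, without overlap. In such bulk libraries fewer cells of a type and less RNA per cell cannot be told apart.

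**Figure D1:**
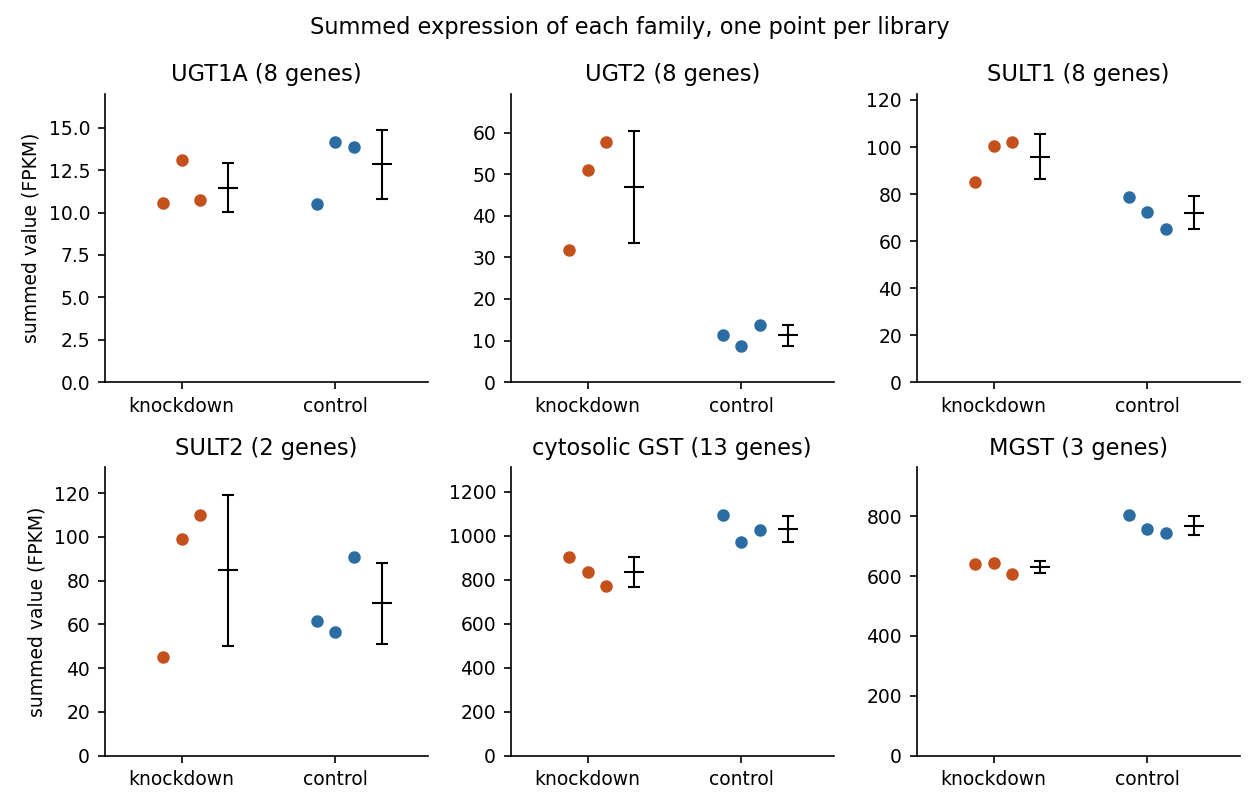
Summed FPKM of the genes of each family (vertical axes, starting at 0) in 3 knockdown libraries (orange) and 3 control libraries (blue), with bars for mean ± SD. The UGT2 sum lies between 31.8 and 57.8 in knockdown and between 8.77 and 13.8 in control libraries. The cytosolic GST and MGST sums of all 3 knockdown libraries lie below those of all 3 control libraries. Without GSTO1 the cytosolic GST sums would overlap between groups, and without MGST1 the MGST sums would.

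Of the 17 genes that were not detected, 12 stayed below 1 FPKM in every library. UGT1A3 (1.15 in knockdown replicate 1, listed at 0 elsewhere), UGT1A10 (at most 1.33), UGT2B17 (at most 1.00) and SULT1A2 (at most 1.07) reached 1 in a single library, and GSTT2 in 2 libraries, at 1.44 and 1.02. Of the 50-base windows in the GENCODE 29 transcripts of GSTT2, 81.1% occur in GSTT2B, which is not a member. GSTT2B had 0.17, 0.87 and 1.02 FPKM in knockdown libraries, against 0.37, 0 and 0.11 in control libraries. Whether GSTT2 counts as detected thus depends on how reads were split between them. The liver-type alpha class genes GSTA1 and GSTA2 had at most 0.40 and 0.54 FPKM in Huh7 cells. The others were UGT1A4, UGT1A5, UGT1A7, UGT2A1, UGT2B10, UGT2B11, UGT3A1, SULT1B1, SULT2B1 and GSTM5.

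Of the 27 genes tested, 7 were called higher and 2 lower in knockdown libraries (limma on log2(value + 1), Benjamini-Hochberg adjusted p below 0.05 over all 13696 rows tested). That is 33.3% called, against a background of 8.08% of all rows tested. Calls of higher expression were 25.9% of the genes, against a background of 4.15%, and calls of lower expression 7.41%, against 3.94%. The 7 were UGT2B4, UGT2B7, UGT2A3, UGT2B15, SULT1E1, SULT1C4 and SULT1A3, and the 2 were GSTO1 and GSTA4. UGT2B15 and SULT1E1 passed the detection filter through the knockdown libraries alone, so a difference was built into their passing. Without those 2 genes, 7 of 25 were called, 5 of them higher. The groups did not overlap for 12 of the 27 genes, against a background of 33.1% of all rows tested; 8 were higher and 4 lower in knockdown, against backgrounds of 14.4% and 18.7%.

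**Figure D2:**
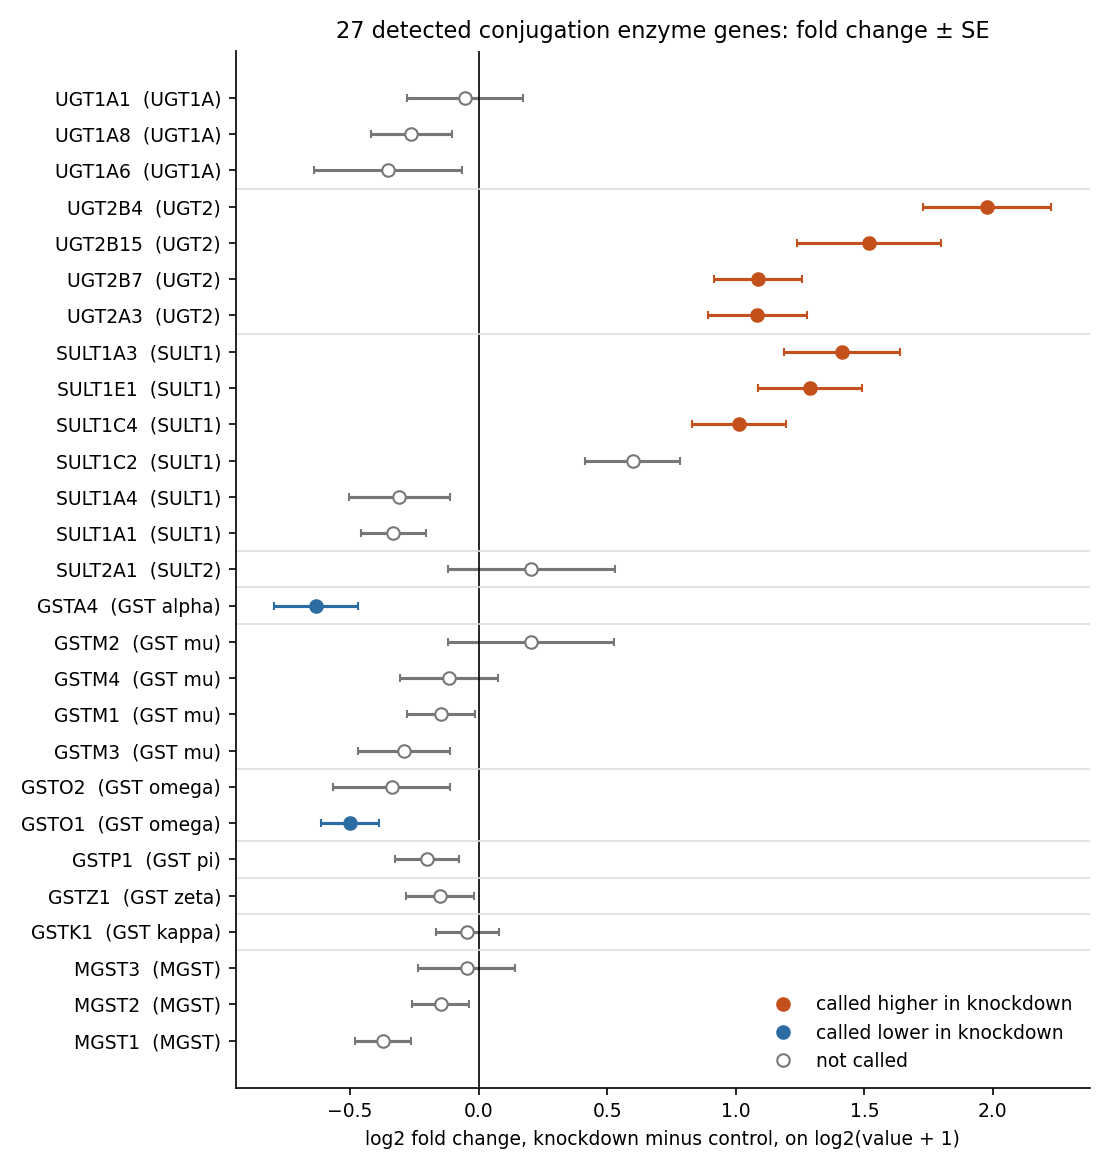
Log2 fold change of each of the 27 detected genes, knockdown minus control on the log2(value + 1) scale (horizontal axis), with SE bars and grouped by family. Filled points passed an adjusted p of 0.05: 4 UGT2 and 3 SULT1 genes lie between 1.01 and 1.98, and GSTO1 and GSTA4 at -0.50 and -0.63.

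All 4 detected UGT2 genes rose in knockdown cells, among them UGT2B15, which was detected through knockdown libraries alone. UGT2B4, which encodes an enzyme that glucuronidates bile acids and catechol oestrogens, had 22.2, 36.8 and 42.3 FPKM in knockdown replicates 1, 2 and 3, against 8.18, 5.66 and 9.22 in control replicates 1, 2 and 3. Every knockdown library lay far above every control library. UGT2B4 (ENSG00000156096) averaged 33.8 ± 10.4 FPKM in knockdown and 7.69 ± 1.83 in control libraries (SD, n = 3 each), a ratio of means of 4.39. It rose by 1.98 on the log2 scale (SE 0.25, adjusted p = 0.00969). It kept the call in all 13 alternatives, and without knockdown replicate 2, the library with leukocyte transcripts, it rose by 1.89 (adjusted p = 0.0449).

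UGT2B7 encodes the enzyme best known for the glucuronidation of morphine and of oestrogens. It had 3.20, 4.11 and 3.69 FPKM in knockdown libraries, against 0.90, 1.33 and 1.37 in control libraries, and rose by 1.09 on the log2 scale (SE 0.17, adjusted p = 0.0150). UGT2A3, another bile acid glucuronosyltransferase gene, had 4.02, 5.49 and 5.62 FPKM in knockdown libraries, against 1.68, 1.44 and 2.46 in control libraries, and rose by 1.08 (SE 0.19, adjusted p = 0.0203). In both genes every knockdown library was above every control library. UGT2B15, whose enzyme inactivates androgens, had 1.43, 3.10 and 4.0 FPKM in knockdown libraries, against 0.32, 0.10 and 0.46 in control libraries (log2 fold change 1.52, SE 0.28, adjusted p = 0.0217). Because 1 is added to each value, the log2 scale understates such low genes: the ratio of means was 3.06 for UGT2B7, 2.71 for UGT2A3 and 9.69 for UGT2B15.

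The adjusted p of UGT2B7 was 0.0647 without knockdown replicate 2, 0.0557 without control replicate 1 and 0.0617 without control replicate 2. That of UGT2A3 was 0.0749 and 0.0695 without knockdown replicates 2 and 3 and 0.0672 and 0.0874 without control replicates 1 and 2. UGT2B15 had 0.0672, 0.0915 and 0.0506 without control replicates 1, 2 and 3, and fell out of the test when a knockdown library was left out, since it then reached 1 FPKM in fewer than 3 libraries. With no filter on low values, where 0.947% of rows were called, UGT2A3 and UGT2B15 had adjusted p = 0.0549 and 0.0587.

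The other 4 UGT2 genes lay below the detection threshold. UGT2B17, which encodes a testosterone glucuronosyltransferase, had 0.47, 0.52 and 1.00 FPKM in knockdown libraries, against 0.03, 0.14 and 0.13 in control libraries. UGT2B11 had 0.16, 0.71 and 0.96 FPKM in knockdown libraries, against 0, 0.07 and 0 in control libraries. UGT2B10, a nicotine glucuronosyltransferase gene, had 0.12, 0.16 and 0.10 FPKM in knockdown libraries and was listed at 0 in the 3 control libraries. The groups did not overlap in any of these, which held for 10.2% of the rows not tested in this direction and 3.54% in the other. UGT1A7 was also higher without overlap, and 0 of the 17 undetected genes were lower without overlap. UGT2A1 overlapped between groups, with 0.11 to 0.12 FPKM in knockdown and 0.03 to 0.16 in control libraries. In a test without the filter the adjusted p-values of UGT2B17, UGT2B11 and UGT2B10 were 0.104, 0.142 and 0.106. Of the 50-base windows in the GENCODE 29 transcripts of UGT2B17 and of UGT2B15, 27.5% occur in the other gene, so the reads of this pair can be split wrongly; UGT2B11 and UGT2B10 share 36.4% and 30.9% of their windows with other genes, against 3.14% for UGT2B4, 5.17% for UGT2A3 and 5.38% for UGT2B7.

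None of the 3 detected UGT1A genes was called, and none had an unadjusted p below 0.05 in limma. This locus makes its enzymes from alternative first exons joined to common later exons, so 40.9% to 79.3% of the 50-base windows of each UGT1A gene occur in another gene, and the division of the values among them is uncertain. The deposited table has no row named UGT1A9, so a sum over its UGT1A genes need not be that of the whole locus. The sum over the 8 genes had 10.6, 13.1 and 10.7 FPKM in knockdown libraries, against 10.5, 14.2 and 13.9 in control libraries. The ranges overlap. UGT1A8 took most of this sum, with 6.64, 7.61 and 6.44 FPKM in knockdown libraries, against 6.82, 9.25 and 9.51 in control libraries (log2 fold change -0.26, adjusted p = 0.312), and its groups overlap too. UGT1A1, which encodes the bilirubin glucuronosyltransferase, had 1.02, 1.75 and 1.85 FPKM in knockdown libraries, against 1.08, 1.67 and 2.19 in control libraries (log2 fold change -0.05, SE 0.23, adjusted p = 0.901). UGT1A6, a phenol glucuronosyltransferase gene, had 0.68 to 2.63 FPKM in knockdown and 1.56 to 2.70 in control libraries and was not called either. The difference between the UGT2 and UGT1A families itself was not tested.

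**Figure D3:**
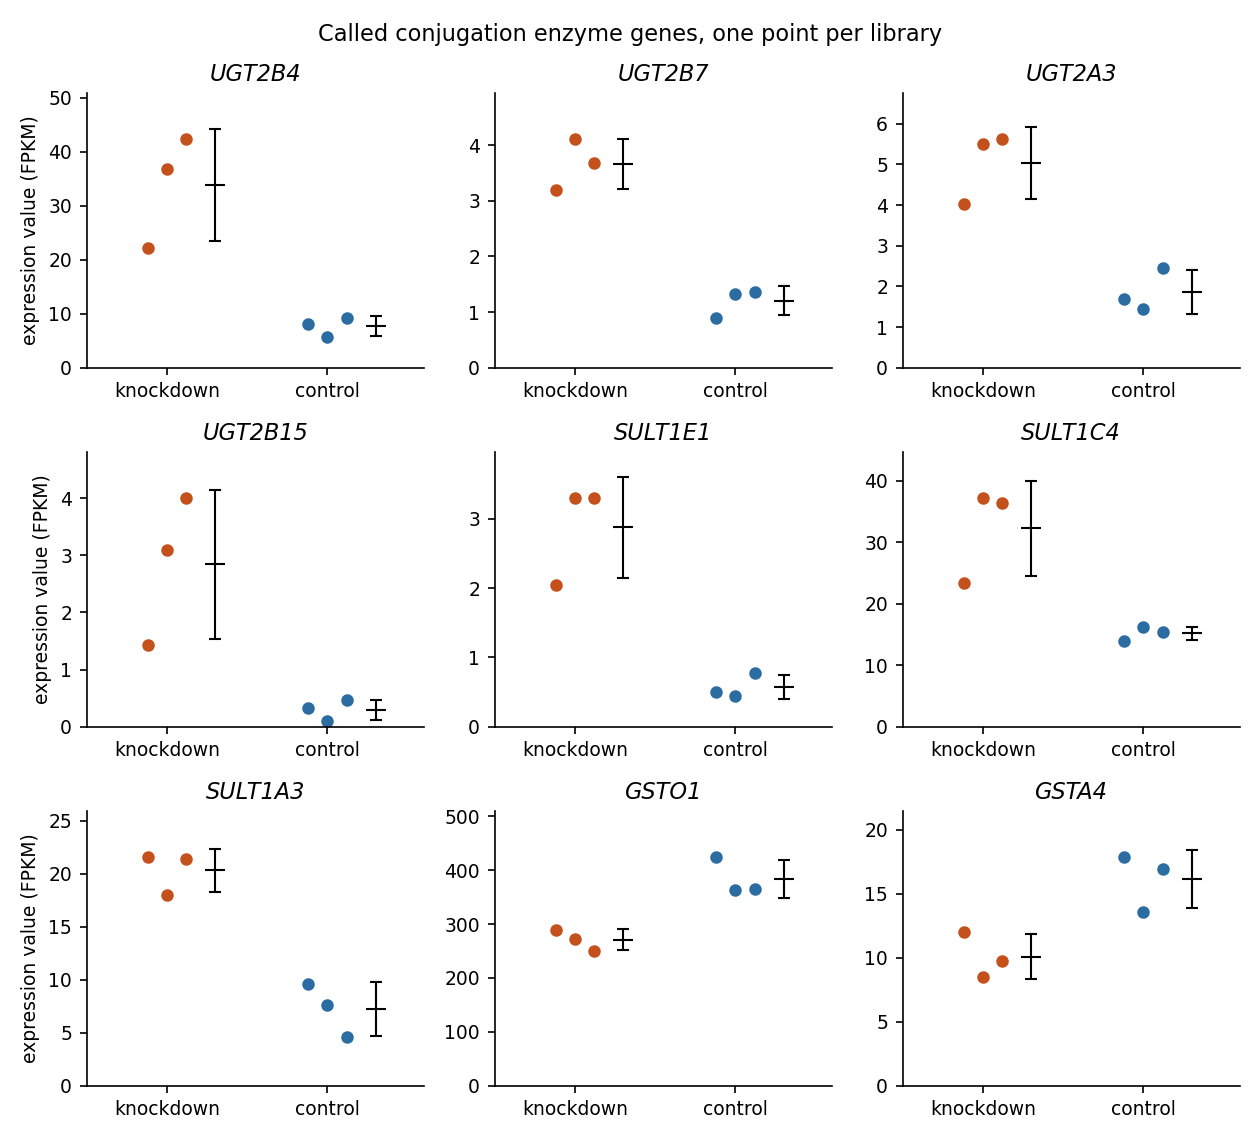
FPKM of the 9 called genes in 3 knockdown libraries (orange) and 3 control libraries (blue), with bars for mean ± SD and vertical axes that start at 0. In each panel the groups are fully apart; knockdown replicate 1, the left orange point, is the lowest knockdown library for UGT2B4, UGT2B7, UGT2A3, UGT2B15, SULT1E1 and SULT1C4.

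The sulfotransferase genes SULT1E1, SULT1C4 and SULT1A3 rose in knockdown cells. SULT1E1, which encodes oestrogen sulfotransferase, had 2.04, 3.30 and 3.30 FPKM in knockdown libraries, against 0.50, 0.45 and 0.77 in control libraries. No control library reached 1 FPKM. The ratio of means was 5.02 and the log2 fold change 1.29 (SE 0.20, adjusted p = 0.0150). A lncRNA gene, AC108941.2, holds 20.0% of its 50-base windows. SULT1C4, which encodes a sulfotransferase of phenolic compounds, had 23.4, 37.2 and 36.3 FPKM in knockdown libraries, against 14.0, 16.2 and 15.3 in control libraries. It rose by 1.01 (SE 0.18, adjusted p = 0.0208), and it made up 27.4% to 37.0% of the SULT1 sum in knockdown and 17.7% to 23.5% in control libraries.

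Its relative SULT1C2 had 1.61, 2.28 and 2.32 FPKM in knockdown libraries, against 1.1, 0.79 and 1.17 in control libraries, and missed the threshold (log2 fold change 0.60, SE 0.18, adjusted p = 0.0762), with an adjusted p of 0.0273 without knockdown replicate 1. SULT1E1 had adjusted p = 0.0591 and 0.0736 without control replicates 1 and 2, and left the test when a knockdown library was left out. SULT1C4 kept the call without knockdown replicate 1 and lost it without any other library, with 0.0737 and 0.0624 without knockdown replicates 2 and 3 and 0.0697, 0.0809 and 0.0579 without control replicates 1, 2 and 3.

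SULT1A3, a gene for the catecholamine sulfotransferase, had 21.6, 17.95 and 21.4 FPKM in knockdown libraries, against 9.62, 7.59 and 4.55 in control libraries. It rose by 1.41 (SE 0.23, adjusted p = 0.0154). The adjusted p was 0.0491 without knockdown replicate 2 and 0.0701 without control replicate 2. The rise of SULT1A3 is uncertain, because SULT1A4 is a near-identical copy: 96.8% of the 50-base windows of SULT1A4 occur in SULT1A3. SULT1A4 itself had 6.44, 10.8 and 11.1 FPKM in knockdown libraries, against 12.2, 10.8 and 11.99 in control libraries, and was not called. The sum of both copies, which depends less on how reads are split between them, was 28.0, 28.7 and 32.5 FPKM in knockdown libraries, against 21.8, 18.3 and 16.5 in control libraries. The groups of the sum do not overlap, and the ratio of its means is 1.57, against 2.80 for SULT1A3 alone.

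SULT1A1, the main phenol sulfotransferase gene of liver, pointed the other way. It had 29.04, 28.3 and 26.98 FPKM in knockdown libraries, against 40.2, 36.3 and 30.9 in control libraries, and did not pass (log2 fold change -0.33, SE 0.13, adjusted p = 0.129). Its share of the SULT1 sum was 26.4% to 34.1% in knockdown and 47.4% to 51.0% in control libraries. SULT2A1, which encodes the sulfotransferase of dehydroepiandrosterone and bile acids, was the most abundant sulfotransferase gene. It had 44.7, 98.8 and 109 FPKM in knockdown libraries, against 61.3, 56.7 and 90.5 in control libraries. Knockdown replicate 1 was the lowest of all 6 libraries and the other knockdown libraries the highest, so the groups overlap (log2 fold change 0.20, SE 0.33, adjusted p = 0.715; 0.60 with adjusted p = 0.0509 without knockdown replicate 1).

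Of the glutathione transferase genes, GSTO1 and GSTA4 fell and none rose in knockdown cells. Of 13 detected genes, 12 had a log2 fold change below 0, where the median of all rows tested was -0.03; no gene above 0 had an unadjusted p below 0.05. After rescaling without the mitochondrially encoded genes, 10 of the 13 stood below 0 and GSTO1 alone was called lower. GSTO1, which encodes an omega class enzyme that reduces dehydroascorbate and arsenic compounds, had 289, 273 and 251 FPKM in knockdown libraries, against 424, 363 and 364 in control libraries. Every knockdown library was below every control library. GSTO1 (ENSG00000148834) fell by 0.50 (SE 0.11, adjusted p = 0.0353), and by 0.39 after the rescaling (adjusted p = 0.0437). GSTA4, which encodes the alpha class enzyme for 4-hydroxynonenal, a product of lipid peroxidation, had 11.97, 8.52 and 9.75 FPKM in knockdown libraries, against 17.8, 13.6 and 16.9 in control libraries. The log2 fold change was -0.63 (SE 0.16) with an adjusted p of 0.04997, at the edge of the threshold, and -0.53 with adjusted p = 0.0729 after the rescaling.

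Both calls were lost when any library other than knockdown replicate 1 was left out. GSTO1 had adjusted p = 0.117 and 0.133 without knockdown replicates 2 and 3 and 0.0870, 0.105 and 0.0837 without control replicates 1, 2 and 3, and GSTA4 had 0.158 and 0.145 without knockdown replicates 2 and 3 and 0.132, 0.1003 and 0.134 without control replicates 1, 2 and 3. Leaving out knockdown replicate 1 gave adjusted p = 0.00986 for GSTO1 and 0.00965 for GSTA4, and MGST1 was called lower as well (adjusted p = 0.0161).

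MGST1, the microsomal transferase that also protects membranes from lipid peroxides, stood highest of the set in control libraries and after GSTP1 in knockdown libraries. It had 453, 418 and 372 FPKM in knockdown libraries, against 543, 545 and 515 in control libraries. The groups did not overlap, but the gene missed the threshold (log2 fold change -0.37, SE 0.11, adjusted p = 0.0694). GSTP1, the pi class gene, had 509, 422 and 384 FPKM in knockdown libraries, against 520, 480 and 499 in control libraries (log2 fold change -0.20, adjusted p = 0.326). GSTK1, whose enzyme lies in mitochondria and peroxisomes, had 123, 157 and 149 FPKM in knockdown libraries, against 149, 138 and 153 in control libraries (log2 fold change -0.04, adjusted p = 0.845), and its log2 fold change was 0.06 after the rescaling. In both genes the groups overlap.

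GSTM3 was the highest mu class gene, with 28.5, 39.2 and 42.4 FPKM in knockdown libraries, against 43.3, 38.0 and 53.3 in control libraries (log2 fold change -0.29, adjusted p = 0.323). GSTM1 had 27.1 to 34.8 FPKM in knockdown and 33.4 to 37.9 in control libraries. GSTM1 shares 49.7% of its 50-base windows with other genes, most of them with GSTM2, so these levels are uncertain. GSTZ1, which encodes the maleylacetoacetate isomerase of tyrosine breakdown, had 17.7, 19.3 and 16.9 FPKM in knockdown libraries, against 19.8, 17.8 and 22.8 in control libraries (adjusted p = 0.480). The other detected glutathione transferase genes (GSTM2, GSTM4, GSTO2, MGST2 and MGST3) overlapped between groups; GSTM2, with 4.10, 11.9 and 10.5 FPKM in knockdown libraries, against 7.23, 5.65 and 8.04 in control libraries, was called higher without knockdown replicate 1. The summed cytosolic GST genes had 905, 835 and 770 FPKM in knockdown libraries, against 1094, 973 and 1028 in control libraries, and the summed MGST genes 641, 645 and 607 FPKM in knockdown libraries, against 804, 758 and 745 in control libraries. As shares of the total without mitochondrially encoded genes, the cytosolic sums were 0.115% to 0.125% in knockdown and 0.136% to 0.140% in control libraries, and the MGST sums 0.0887% to 0.0959% in knockdown and 0.102% to 0.106% in control libraries, still without overlap. Single genes weighed heavily in both sums. In the values as deposited, the cytosolic sums without GSTO1 overlap between groups, as do the MGST sums without MGST1. GSTO1 averaged 271 FPKM in knockdown and 384 in control libraries, within cytosolic sums averaging 836.5 and 1032. MGST1 averaged 414 FPKM in knockdown and 534 in control libraries, within MGST sums averaging 631 and 769.

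The genes were chosen by symbol, and the UGT2 genes chosen in this way lie together, so position came with the choice. In the RefSeq annotation (GRCh38.p14, used for gene order alone), the 8 UGT2 genes, SULT1B1 and SULT1E1 lie side by side on chromosome 4. From the first to the last of them there are 12 protein-coding genes, of which 10 are members. The other 2, UGT2B28 and UGT2A2, have no row under these symbols in the deposited table. All 5 genes of this stretch that were tested (UGT2B15, UGT2A3, UGT2B7, UGT2B4 and SULT1E1) rose, 2 of them having passed the filter through knockdown libraries alone. Since the stretch was bounded by members and no other gene in it was tested, this restates the UGT2 and SULT1E1 results. A role of position was not tested. UGT2A1 and SULT1B1, which lie between UGT2B4 and SULT1E1, had at most 0.16 and 0.32 FPKM in any library and overlapped between groups. SULT1C4 and SULT1C2 lie on chromosome 2, SULT1A3 on chromosome 16, GSTO1 on chromosome 10 and GSTA4 on chromosome 6.

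**Figure D4:**
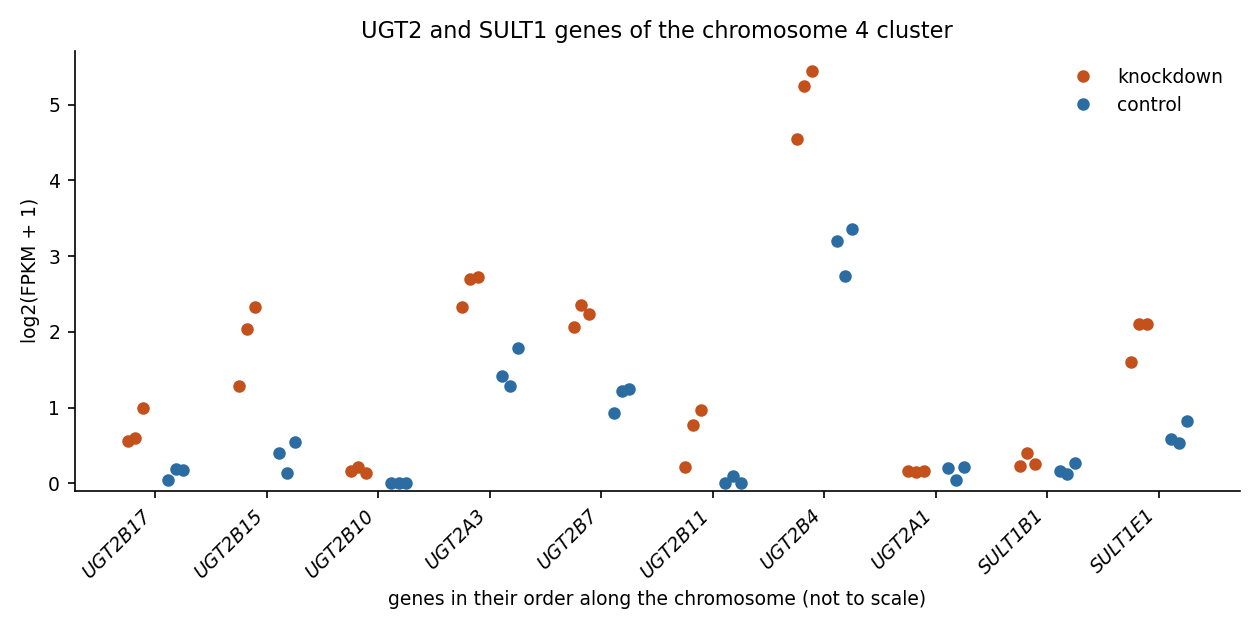
Log2(FPKM + 1) of 10 genes in their order along chromosome 4 (horizontal axis, not to scale) in 3 knockdown libraries (orange) and 3 control libraries (blue). UGT2B4 stands highest in both groups; the groups are apart for UGT2B17, UGT2B15, UGT2B10, UGT2A3, UGT2B7, UGT2B11, UGT2B4 and SULT1E1 and overlap for UGT2A1 and SULT1B1.

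The promoters of 4 of the 5 genes of this stretch that rose, and of both genes that fell, are shown so that the called genes can be compared. They are the 250 bases before the RefSeq start of each gene (GRCh38.p14), with 4 short motifs in capitals where found on either strand: TGACNNNGC (core of the antioxidant response element), TTGCNNAA (C/EBP), the TATA box of core promoters as TATAAA, and TGA and TCA with any 1 base between (AP-1). The promoter table held 37 of the 44 genes, UGT2B4 not among them.
UGT2A3, chr4:68951805-68952054, minus strand: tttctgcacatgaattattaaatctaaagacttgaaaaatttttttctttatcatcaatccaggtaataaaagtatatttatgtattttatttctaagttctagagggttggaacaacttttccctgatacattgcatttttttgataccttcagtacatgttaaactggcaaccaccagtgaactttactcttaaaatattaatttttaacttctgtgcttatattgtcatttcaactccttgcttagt
UGT2B7, chr4:69096224-69096473, plus strand: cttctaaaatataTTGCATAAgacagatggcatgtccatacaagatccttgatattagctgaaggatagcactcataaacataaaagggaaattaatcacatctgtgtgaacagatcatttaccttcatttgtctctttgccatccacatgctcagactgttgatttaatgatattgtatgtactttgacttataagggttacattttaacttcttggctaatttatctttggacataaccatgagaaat
UGT2B15, chr4:68670653-68670902, minus strand: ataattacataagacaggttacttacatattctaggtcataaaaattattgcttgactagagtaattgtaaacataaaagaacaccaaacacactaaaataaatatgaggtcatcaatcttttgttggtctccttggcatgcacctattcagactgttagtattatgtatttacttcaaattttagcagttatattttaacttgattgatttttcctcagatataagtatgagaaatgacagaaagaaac
SULT1E1, chr4:69860146-69860395, minus strand: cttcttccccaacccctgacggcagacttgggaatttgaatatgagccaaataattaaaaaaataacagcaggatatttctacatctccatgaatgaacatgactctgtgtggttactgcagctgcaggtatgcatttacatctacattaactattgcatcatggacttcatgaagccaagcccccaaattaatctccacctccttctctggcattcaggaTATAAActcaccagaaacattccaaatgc
GSTO1, chr10:104254642-104254891, plus strand: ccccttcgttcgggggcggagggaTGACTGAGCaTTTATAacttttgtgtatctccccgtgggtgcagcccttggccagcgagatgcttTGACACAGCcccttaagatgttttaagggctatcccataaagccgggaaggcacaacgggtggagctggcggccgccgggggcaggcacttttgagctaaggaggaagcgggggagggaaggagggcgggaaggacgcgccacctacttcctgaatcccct
GSTA4, chr6:52995285-52995534, minus strand: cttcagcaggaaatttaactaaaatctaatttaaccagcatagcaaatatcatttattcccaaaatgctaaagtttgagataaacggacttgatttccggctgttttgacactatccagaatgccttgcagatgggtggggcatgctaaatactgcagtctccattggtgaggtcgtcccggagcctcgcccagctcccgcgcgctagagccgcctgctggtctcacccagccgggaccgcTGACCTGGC
In these windows UGT2B7 holds the C/EBP letters, SULT1E1 a TATA box 29 bases before its start, and UGT2A3 and UGT2B15 none of the 4. GSTO1 holds the antioxidant response element core at 226 and at 161 bases before its start, the first beside TATA letters, and GSTA4 holds it in the last 9 bases before its start. Among all 27305 promoters in the table, TGACNNNGC was found in 11%, TTGCNNAA in 9.13%, TATAAA in 11.1% and the AP-1 letters in 6.60%, and among the 37 members in 9, 5, 10 and 1. In GSTP1 the AP-1 letters lie within TGACNNNGC. The 9 members with the antioxidant response element core were GSTO1, GSTA4, SULT1C2, UGT2B10, UGT2B11, GSTP1, GSTM1, GSTM5 and UGT1A5. GSTO1 and GSTA4 were lower in knockdown without overlap, SULT1C2, UGT2B10 and UGT2B11 higher without overlap, and the others overlapped between groups. A match of letters is no evidence of binding. Within the UGT2 genes, the promoters of UGT2B7 and UGT2B15 were identical at 58.4% of aligned positions and those of UGT2B10 and UGT2B11 at 90.2%, while UGT2A3 matched UGT2B7 and UGT2B15 at 50.7% and 45.9%. Gaps were allowed and counted as positions, and no unrelated promoters were aligned, so the lower values cannot be read as resemblance.

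Around the conjugating enzymes, 6 lists of related genes were examined, against a background of 4.15% of all rows tested called higher and 3.94% called lower. Of 25 tested genes of glutathione supply and turnover, 1 rose and 4 fell (median log2 fold change -0.13, against -0.03 over all rows tested), so that the share that rose was at the background. GGCT, which breaks down gamma-glutamyl peptides, had 71.4, 67.2 and 59.1 FPKM in knockdown libraries, against 132, 117 and 102 in control libraries, and fell by 0.81 (SE 0.13, adjusted p = 0.0154). GPX3, a secreted glutathione peroxidase gene, had 30.9, 24.3 and 15.9 FPKM in knockdown libraries, against 50.6, 52.3 and 49.9 in control libraries, and fell by 1.12. GPX1, the main cytosolic peroxidase, fell by 0.57, while GGT1, which splits extracellular glutathione, rose by 0.89. The genes of glutathione synthesis, GCLC, GCLM and GSS, were not called (log2 fold changes 0.29, 0.31 and -0.19).

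Of 13 genes listed around the cofactors of glucuronidation and sulfation, 0 rose and 1 fell (median -0.16, with 2 higher genes at an unadjusted p below 0.05 in limma). The list also holds genes that use or clear the sulfate donor (TPST1, TPST2, BPNT1 and IMPAD1) and do not supply it. BPNT1, which clears the spent donor, had 23.1, 26.2 and 21.5 FPKM in knockdown libraries, against 29.9, 36.4 and 36.9 in control libraries. Its log2 fold change was -0.52 (SE 0.13, adjusted p = 0.0482). BPNT1 kept this call in 3 of 13 alternatives, and had adjusted p = 0.128 after the rescaling without mitochondrially encoded genes and 0.0643 with the replicate number as a block. UGDH, which makes UDP-glucuronic acid, and the PAPS synthase genes PAPSS1 and PAPSS2 were not called (-0.26, -0.16 and 0.12). Of 8 genes listed for the removal of conjugated groups, 0 were called by limma (median 0.19). The 2 with an unadjusted p below 0.05 in limma, SUMF1 and SUMF2, encode sulfatase-modifying factors that remove no group themselves. Of 11 tested genes listed for export and uptake of conjugates, 1 rose and 0 fell (median 0.09, with 0 lower genes at an unadjusted p below 0.05 in limma). ABCB1, which encodes the drug exporter P-glycoprotein, had 39.0, 58.1 and 57.7 FPKM in knockdown libraries, against 19.3, 19.7 and 21.2 in control libraries, and rose by 1.30 (SE 0.16, adjusted p = 0.00969). The conjugate exporters ABCC2 and ABCC3 had log2 fold changes of 0.41 and 0.63 and were not called, nor was any other ABCC gene of the list or ABCG2.

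Of 18 tested relatives of these enzymes, 3 rose and 0 fell (median 0.08; 1 lower gene, GSTCD, had an unadjusted p below 0.05). BAAT, which joins bile acids to glycine or taurine, had 4.52, 11.4 and 13.7 FPKM in knockdown libraries, against 1.21, 0.97 and 2.33 in control libraries, and rose by 2.04 (SE 0.36, adjusted p = 0.0198). GLYATL1, a glycine N-acyltransferase-like gene, rose by 0.73, and NNMT, which methylates nicotinamide, rose with 67.8, 20.3 and 24.0 FPKM in knockdown libraries, against 4.09, 7.04 and 6.17 in control libraries. The acetyltransferase genes NAT1 and NAT2 were not called (0.65 and 0.61).

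Of 22 tested regulators, 2 rose and 4 fell (median -0.09). MAFF and MAFK, small MAF proteins that pair with NRF2 on antioxidant response elements, both rose: MAFF had 23.6 to 27.2 FPKM in knockdown and 4.39 to 5.43 in control libraries, and MAFK 51.4 to 83.8 in knockdown and 22.2 to 24.7 in control libraries. NFE2L2, the NRF2 gene, had 111, 99.0 and 88.0 FPKM in knockdown libraries, against 95.7, 110 and 124 in control libraries, and KEAP1, its inhibitor, had a log2 fold change of 0.02; neither was called. The liver factors FOXA1 (9.10 ± 1.15 FPKM in knockdown and 17.6 ± 0.32 in control libraries, SD, n = 3 each) and FOXA3 fell by 0.89 and 0.68, and CEBPA, the C/EBP alpha gene, fell by 1.36. NR1H4, the bile acid receptor gene, fell, with 6.88, 4.32 and 2.80 FPKM in knockdown libraries, against 10.96, 17.9 and 13.9 in control libraries. HNF4A and AHR were not called (-0.33 and 0.26), and the xenobiotic receptors NR1I2 and NR1I3 were below the detection threshold, at no more than 0.26 and 0.78 FPKM. Calls of list genes often changed with the libraries used: of the 16, the 15 recomputed (all but CEBPA) gave 15, 4 and 7 calls without knockdown replicates 1, 2 and 3, and 3, 2 and 6 without control replicates 1, 2 and 3. MAFF and MAFK passed in all 13 alternatives.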

How the data were processed

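RNA of 6 Huh7 libraries, 3 knockdown and 3 control, grouped and numbered by their titles, was sequenced from TruSeq libraries, per the labels' protocols. The authors deposited 1 table with a value per gene and library. It was read as FPKM made by the authors, although no unit is named; TPM of an incomplete gene set would look alike. The submitters' processing notes name Trimmomatic 0.36, Bowtie2 2.2.6 and RSEM 1.1.17 among others, without roles, and the mouse build mm10, while the IDs are human, so no coordinates of the authors are used. All 44 IDs of the set are in GENCODE 29.

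Rows with at least 1 FPKM in at least 3 libraries (13696) were tested on log2(value + 1) with limma 3.58.1 in R 4.3.3 (trend, robust moderation, two-sided, Benjamini-Hochberg over all rows). The simulated data used to check the test held changes only in rows averaging at least 3 on that log2 scale. The check thus leaves out lower genes such as UGT2B7, UGT2A3, UGT2B15 and SULT1E1. The design had been written for counts or normalized values, and the form for normalized values was used. An exact permutation test of 3 against 3 libraries cannot go below p = 0.1. "Rose" and "fell" mean an adjusted p below 0.05. Members and lists were chosen with earlier results of these data known, so no list was tested. Values in every library are given for members with an unadjusted p below 0.05 and for the highest detected gene of each family; of each list, up to 5 called genes with the smallest p are named, and other genes were named after their values were seen. A few list members enter the counts but are not reported here. Absolute depth is unknown, so no counting intervals are given. Promoters are RefSeq's (GRCh38.p14).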

Additional observations from a re-analysis of the deposited data

How the results depend on the processing

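Over 13 alternatives, the 9 called genes kept their sign. UGT2B4 kept its call in all 13, SULT1A3 in 11, UGT2B7 in 10, UGT2A3 in 8, SULT1C4 in 7, GSTO1 in 6 and GSTA4 in 2; SULT1E1 and UGT2B15, tested in 10, kept it in 8 and 6. As given, 9 genes of the set were called, 7 higher and 2 lower. Leaving out 1 library at a time gave 1 to 10 called genes, 1 to 7 higher and 0 to 3 lower, while the calls over all rows ranged from 56 to 3284 (50 to 1573 higher, 6 to 1711 lower), lowest without control replicate 2 and highest without knockdown replicate 1. With no filter on low values, 3 genes of the set were called, 3 higher and 0 lower, and 221 rows in all (157 higher, 64 lower). With no trend and no robust moderation, 727 rows were called, 277 lower, and 0 genes of the set were lower. The number of genes of the set called lower was 1 with a pseudocount of 0.1, with quantile normalization, with the rescaling without mitochondrially encoded genes (223 rows lower) and with a filter on the mean over all libraries, which was added after the data were seen. GSTK1, not called in any, had a log2 fold change of 0.059 with quantile normalization, 0.065 after the rescaling and -0.112 to 0.059 with 1 library left out, and SULT2A1, also not called, -0.031 to 0.604 with 1 library left out. The causes were not tested.

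With the replicate number as a block, 861 rows and 9 genes of the set were called. Libraries of the same number had deviations that correlated at 0.053, 0.105 and 0.135; since not all exceeded 0.1, the numbers were not taken as pairs, and knockdown replicate 1 correlated best with control replicate 2. Alternatives planned for counts were not run. The depth of the libraries is unknown, which limits what can be said of genes below 1 FPKM.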

Other observations

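The following values were chosen after they were seen. Knockdown replicate 1 stood apart from the other knockdown libraries in several genes around glutathione and UDP-glucuronic acid. SLC7A11, the cystine importer that feeds glutathione synthesis, had 9.21 FPKM in knockdown replicate 1, 2.47 and 2.02 in knockdown replicates 2 and 3, and 1.70 to 2.19 in control libraries. GCLM, the modifier subunit of glutamate-cysteine ligase, had 59.2 FPKM there, 32.3 and 25.8 in the other knockdown libraries, and 25.6 to 32.5 in control libraries. TXNRD1, thioredoxin reductase, had 68.1 FPKM there, 40.8 and 32.7 in the other knockdown libraries, and 41.4 to 57.0 in control libraries. UGDH had 48.5 FPKM there, 28.3 and 22.0 in the other knockdown libraries, and 28.0 to 45.4 in control libraries. None of these genes was called between groups.

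LTC4S, which encodes leukotriene C4 synthase, a relative of the microsomal glutathione transferases, was below the detection threshold and had 1.25, 0.24 and 0.61 FPKM in knockdown libraries, against 0.02, 0 and 0 in control libraries.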
